A study of Arabidopsis thaliana with 39 samples.

Results

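LEUNIG (LUG) peaks of *morchex* that shared no base with any LUG peak of WT numbered 2883 of the 5351 peaks called in *morchex* (53.9%), and are called *morchex*-only peaks here. They were chosen by the overlap of the called peaks alone, so their width, enrichment and q values are described and not tested. The other 2468 peaks of *morchex* shared at least 1 base with a WT peak and are called shared peaks. The *morchex* plants carry mutations in 6 MORC genes in the Columbia-0 background (*morc1-2*, *morc2-1*, *morc4-1*, *morc5-1*, *morc6-3* and *morc7-1*), and WT is Columbia-0. For chromatin immunoprecipitation, both genotypes expressed a FLAG-tagged genomic fragment of LUG, or of the protein labelled TPL, from its native promoter, with 1 peak list for each protein and genotype. RNA was sequenced from 3 libraries each of *morchex* and WT at T0, before heat, and from 3 libraries each of *lug* (allele not given in the sources used here) and its wild type Ler, all labelled as floral tissue of 5 to 6 weeks. The methods name inflorescence and meristem tissue for chromatin immunoprecipitation, from plants slightly younger than these labels give. The fit behind the T0 tests took in 16 libraries of *morchex* and WT. These include libraries after heat for 0.5 h and after recovery, labelled 48 h, which share in the estimate of spread. The methods do not say whether libraries of a group came from separate plants, so p-values measure the spread between libraries, which may be technical.

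MORC proteins use ATP to close around DNA and draw it together, and plants that lack them express transposons that are otherwise off. LUG and TOPLESS (TPL) are co-repressors of the Groucho/Tup1 type, which do not bind DNA themselves and are brought to promoters by transcription factors or adaptors such as SEUSS. LUG is best known for keeping the floral gene AGAMOUS silent in the outer whorls of the flower.

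With 1 library per genotype there is no replicate check on any peak, and intervals on shares of peaks cover counting error only. The lists give no read depth, so its part in the number of peaks called was not tested. The WT list held 2721 peaks, of which 2555 had a *morchex* peak (93.9%) and 166 had none. The label of floral tissue was checked at T0 with 7 floral identity genes. APETALA1, APETALA3, PISTILLATA and SEP2 lay between 0 and 0.07 TPM (a level normalized for transcript length and library total) in *morchex* and between 0 and 0.47 TPM in WT, so these 4 were at or near 0 in both. AGAMOUS, of stamen and carpel identity, had 1.65 to 2.64 TPM in *morchex* and 1.33 to 2.03 TPM in WT, SEP1 4.11 to 5.83 and 3.57 to 4.81 TPM, and SEP3 6.69 to 14.8 and 3.54 to 15.8 TPM. A set of 6 anther genes summed to 0.03 to 0.07 TPM in *morchex* and 0.10 to 0.22 TPM in WT. The label of floral tissue was thus not borne out by the 4 genes near 0 or by the anther genes. Whether this tissue matched that used for chromatin immunoprecipitation was not tested. Libraries held 12.8 to 17.9 M expected counts in *morchex* and 8.61 to 11.8 M in WT at T0, and 12.7 to 15.3 M in *lug* and 11.4 to 15.9 M in Ler. Expression in bulk tissue cannot tell fewer cells of a type from less RNA per cell.

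The sequences below show what lies under the *morchex*-only peaks on which the results turn: the peak with the highest −log10 q, peaks at 3 of the genes called higher in *morchex*, peaks at both genes called lower, and the strongest promoter peak of a tested protein-coding gene (HAM1). Each is the plus strand of TAIR10.1 (RefSeq), 201 bases centred on the summit, and capitals mark the letters of any of the 8 motifs searched.

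strongest peak, chr3:14859801-14860001: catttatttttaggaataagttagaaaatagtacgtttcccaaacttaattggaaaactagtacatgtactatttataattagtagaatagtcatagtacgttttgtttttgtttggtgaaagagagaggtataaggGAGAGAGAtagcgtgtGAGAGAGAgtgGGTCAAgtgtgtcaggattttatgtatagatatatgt
AT3G29639, chr3:11480282-11480482: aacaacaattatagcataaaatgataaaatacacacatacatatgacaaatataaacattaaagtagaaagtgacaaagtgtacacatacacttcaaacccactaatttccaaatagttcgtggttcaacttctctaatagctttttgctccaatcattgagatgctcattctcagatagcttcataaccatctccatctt
AT5G28888, chr5:10903439-10903639: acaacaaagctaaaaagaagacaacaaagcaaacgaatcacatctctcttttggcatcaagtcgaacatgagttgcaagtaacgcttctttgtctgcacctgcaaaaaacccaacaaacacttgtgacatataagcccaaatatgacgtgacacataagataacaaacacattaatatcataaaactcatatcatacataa
AT4G01975, chr4:862854-863054: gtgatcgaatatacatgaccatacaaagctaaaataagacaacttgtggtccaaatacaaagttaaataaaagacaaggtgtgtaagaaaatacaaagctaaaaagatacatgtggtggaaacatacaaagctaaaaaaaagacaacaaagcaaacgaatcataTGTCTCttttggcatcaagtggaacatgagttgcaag
AT3G55646, chr3:20644825-20645025: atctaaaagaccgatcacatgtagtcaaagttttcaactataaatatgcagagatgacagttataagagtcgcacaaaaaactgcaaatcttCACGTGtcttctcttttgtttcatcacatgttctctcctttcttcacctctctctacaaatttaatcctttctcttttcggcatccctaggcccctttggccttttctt
AT3G28220, chr3:10523929-10524129: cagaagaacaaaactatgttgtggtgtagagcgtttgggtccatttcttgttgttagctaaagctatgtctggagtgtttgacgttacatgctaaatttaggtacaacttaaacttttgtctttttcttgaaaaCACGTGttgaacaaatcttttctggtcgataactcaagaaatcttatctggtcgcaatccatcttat
HAM1, chr5:25830780-25830980: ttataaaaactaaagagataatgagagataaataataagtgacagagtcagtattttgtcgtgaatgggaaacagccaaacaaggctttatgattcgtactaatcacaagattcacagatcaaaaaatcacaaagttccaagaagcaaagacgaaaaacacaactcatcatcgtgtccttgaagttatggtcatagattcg

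*Morchex*-only peaks were narrow and weak beside shared peaks. Their median width was 279 bp (quartiles 226 and 359), against 463 bp (341 and 637) for shared peaks. The median fold enrichment over the local background was 2.09, against 2.67 for shared peaks, and the median −log10 q was 4.45, against 10.5 for shared peaks. A −log10 q of at least 10 was reached by 167 *morchex*-only peaks (5.79%) and by 1312 shared peaks (53.2%). Among the 2721 strongest *morchex* peaks, as many as the WT list held, 771 were *morchex*-only (28.3%).

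**Figure D1:**
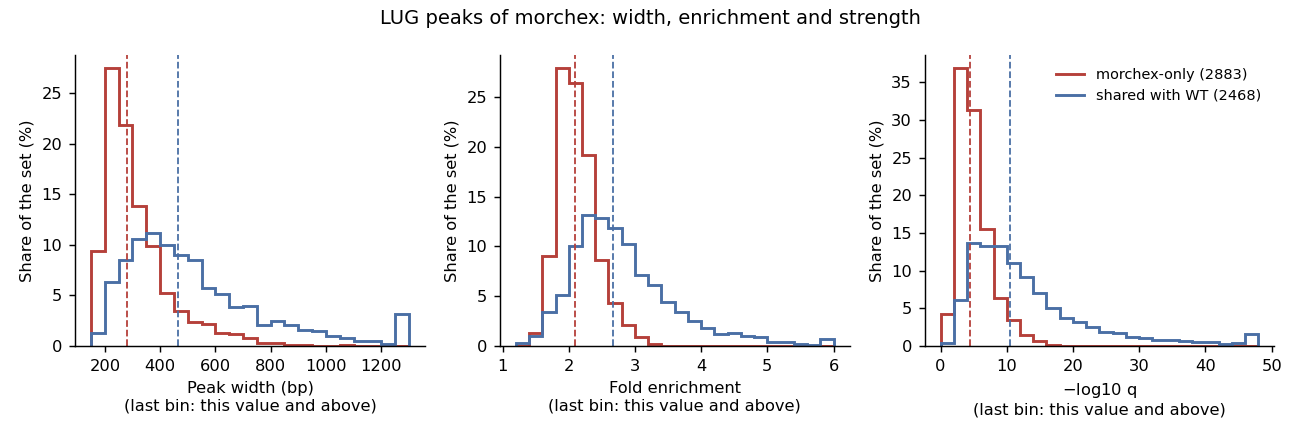
Width in bp, fold enrichment and −log10 q of the 2883 *morchex*-only LUG peaks and the 2468 shared peaks, each as a share of its set in %. Dashed lines are medians, at 279 and 463 bp, 2.09 and 2.67, and 4.45 and 10.5 for *morchex*-only and shared peaks, and the last bin holds all larger values.

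Most *morchex*-only peaks lay over 5000 bp from a WT LUG peak, and gaps of random positions were not computed for comparison. The nearest WT LUG peak was over 5000 bp away for 1674 of them (58.1%) and within 500 bp for 257 (8.91%), with a median gap of 8266 bp. At the edge of the rule, the nearest *morchex*-only peak began 11 bp from a WT peak (chr1:5421246-5421556, −log10 q 4.12, at the promoter of TPL itself), and the shared peak with least overlap shared 6 bases (chr3:2440953-2441387, −log10 q 3.24).

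Along the chromosomes, the *morchex*-only peaks numbered 806, 468, 530, 436 and 643 on chromosomes 1 to 5, or 22.6 to 26.5 per Mb, against 19.7 to 21.3 per Mb for shared peaks. They were sparse around the centromeres. The pericentromere, taken as 100 kb bins with under 50% of the median density of protein-coding genes in the surrounding 1 Mb, made up 16.1% of the genome and held 67 *morchex*-only peaks (2.32%, exact 95% interval 1.81 to 2.94%), against 119 shared peaks (4.82%, 4.01 to 5.74%). At a −log10 q of at least 10 the share of *morchex*-only peaks was 8.98% (15 of 167 peaks). From 10 to 20 it was 7.93% of 164 *morchex*-only and 7.10% of 887 shared peaks. From 20 up it was 2 of 3 and 13 of 425 peaks. In each class under 10 the share was the lower one for *morchex*-only peaks. Protein-coding genes are also sparse in the pericentromere. Per 100 protein-coding genes, the number of *morchex*-only peaks was 6.48 inside the outer edges of the pericentromere, 5.71 within 1 Mb of it and 13.6 at 10 to 15 Mb, against 10.8, 3.57 and 11.8 shared peaks in those stretches.

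**Figure D2:**
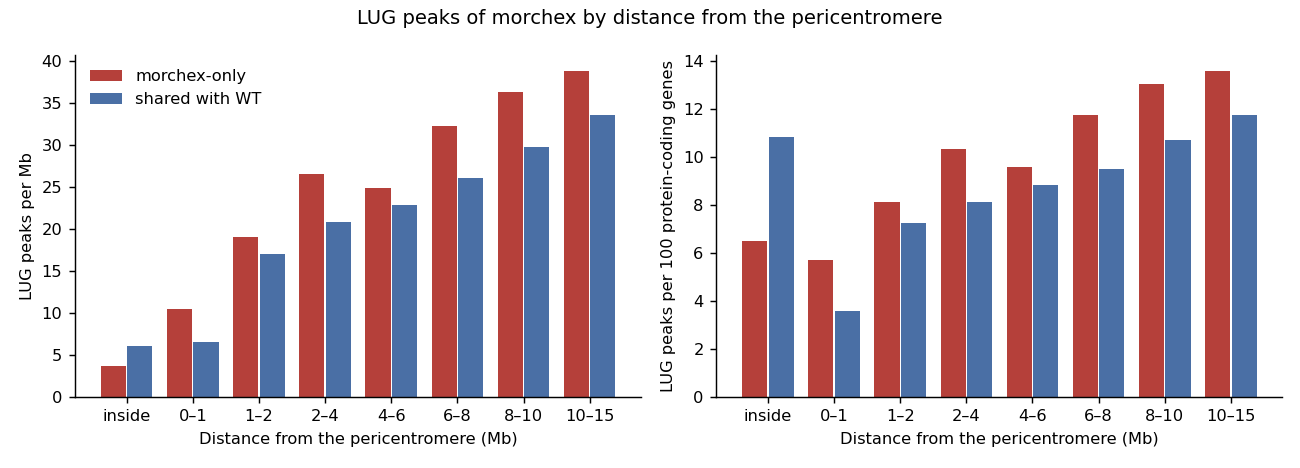
LUG peaks of *morchex* per Mb (left) and per 100 protein-coding genes (right) by distance of the summit from the outer edge of the pericentromere in Mb, *morchex*-only beside shared. *Morchex*-only peaks ran from 3.65 per Mb inside to 38.8 per Mb at 10 to 15 Mb, and were fewer than shared peaks inside only.

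The strongest *morchex*-only peak of all lay in the pericentromere (chr3:14859525-14860294, 770 bp, fold enrichment 5.35, −log10 q 44.3, rank 49 of the 5351 peaks), between genes and 7221 bp from the nearest start of a protein-coding gene. It had a TPL peak in *morchex* and none in WT, and 496775 bp separated it from the nearest WT LUG peak. Its summit window held 2 GAGAGAGA repeats and the reverse of a W-box core. The *morchex*-only peak with the next highest −log10 q (30.3) was 196 bp wide, with a fold enrichment of 2.30 and no TPL peak in either genotype (chr5:11933536-11933731). A further 5 *morchex*-only peaks with a −log10 q of at least 10 were 189 to 205 bp wide with a fold enrichment of 1.74 to 1.97, all in the pericentromere and none with a TPL peak.

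Most summits lay between genes or in 5′ untranslated exons. Of the *morchex*-only summits, 60.2% lay between genes, 16.8% in 5′ untranslated exons, 8.12% in coding exons, 6.42% in introns of protein-coding genes and 4.82% in 3′ untranslated exons. For shared summits these shares were 66.0%, 12.4%, 3.32%, 6.89% and 6.08%. The *morchex*-only set thus held more summits inside coding and 5′ untranslated exons, with intervals of 7.15 to 9.17% and 15.5 to 18.2%, against 2.65 to 4.11% and 11.2 to 13.8% for the shared set. A promoter, from 1000 bp upstream to 200 bp downstream of a gene's start, held 1320 *morchex*-only summits (45.8%) and 1024 shared summits (41.5%). By class of −log10 q, the promoter share was lower for *morchex*-only peaks under 3 (41.3% against 48.2%). It was also lower from 4 to 6 (44.4% against 46.4%), and higher in the other classes, as from 3 to 4 (49.0% against 36.8%). Shares of exons and introns were not taken by class. The median distance to the nearest start of a protein-coding gene was 808 bp for *morchex*-only and 1167 bp for shared summits.

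A TPL peak was already called in WT at most of these sites. Of the 2883 *morchex*-only LUG peaks, 2536 shared a base with a TPL peak of WT (88.0%, exact 95% interval 86.7 to 89.1%), and 2485 had their summit inside one (86.2%). Among shared LUG peaks 2346 of 2468 did (95.1%, 94.1 to 95.9%). The WT list of TPL held 10267 peaks with a median width of 563 bp, and 61.3% of them had no LUG peak in either genotype. The share to be found at promoters in general or at moved peaks was not computed. Both proteins carried the same FLAG tag, and the part of antibody background common to both lists was not tested. In *morchex*, a TPL peak lay at 94.5% of *morchex*-only peaks and 95.9% of shared peaks. On the arms, outside the pericentromere, TPL of WT lay at 89.3% of *morchex*-only peaks (88.1 to 90.4%) and 98.6% of shared peaks (98.0 to 99.0%). Classes of LUG strength were taken with the pericentromere included, where 25.2% of shared peaks had TPL of WT. In each class up to a −log10 q of 20 the share was the lower one for *morchex*-only peaks. The intervals separated in 1 class only. Between a −log10 q of 6 and 10, 89.4% of 630 *morchex*-only peaks had a TPL peak of WT (86.7 to 91.7%), against 96.6% of 656 shared peaks (94.97 to 97.89%). With TPL peaks of WT restricted to a −log10 q of at least 10, the share for *morchex*-only peaks was 39.7%.

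**Figure D3:**
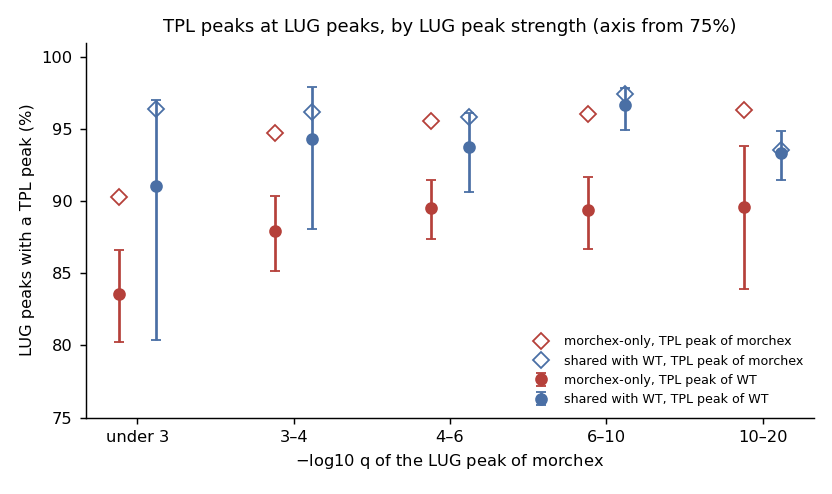
Share of LUG peaks of *morchex* with a TPL peak, in %, by −log10 q of the LUG peak, for *morchex*-only and shared peaks. Filled points are TPL peaks of WT with exact 95% intervals (counting error only), open diamonds are TPL peaks of *morchex*, and the axis starts at 75%. From 3 to 20 the *morchex*-only points for WT lie between 87.9% and 89.6%, and those for *morchex* between 94.8% and 96.3%.

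The TPL peaks of WT under *morchex*-only LUG peaks were of middle strength. The 1856 TPL peaks of WT with a *morchex*-only LUG peak and no WT LUG peak had a median −log10 q of 7.45 and a median width of 754 bp, against 14.98 and 1371 bp for the 2107 with a WT LUG peak. The 6304 with neither had 3.64 and 424 bp. A total of 534 *morchex*-only LUG peaks (18.5%) lay in a TPL peak of WT that also held a WT LUG peak, so these were further LUG peaks inside a stretch where both proteins were called in WT.

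No TPL peak of WT was called at 347 *morchex*-only peaks, and 199 of these (57.3%) had a TPL peak in *morchex*, against 23 of 122 shared peaks (18.9%). At these 199 sites LUG and TPL were both called in *morchex* and neither in WT. Both lists of *morchex* were longer, with 5351 LUG peaks against 2721 in WT, and 12224 TPL peaks against 10267. The median −log10 q of all TPL peaks was 7.13 in *morchex* and 4.998 in WT. Whether signal at these sites lay just under the cut for a peak in WT was not tested. The contrast of 57.3% with 18.9% for shared peaks was not seen on the arms, outside the pericentromere. There, TPL was in *morchex* alone at 177 and in neither at 125 *morchex*-only peaks, against 21 and 12 shared peaks. Over all *morchex*-only peaks, TPL was in neither genotype at 148 sites, and in WT alone at 11. The pericentromere held 22 of the 199 (11.1%), 23 of the 148 (15.5%) and 22 of the 2536 with TPL in WT (0.868%). Of the 67 pericentromeric peaks, TPL was in WT at 32.8%, in *morchex* alone at 32.8% and in neither at 34.3%, while 89.3% of those on the arms had TPL in WT. The 119 shared pericentromeric peaks divided differently, with 25.2%, 1.68% and 73.1%. Lists labelled TPL come from plants whose cloning primers enclose chr1:30261097-30268312, over TPR1, a close relative of TPL, so the label is kept as a name only.

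A *morchex*-only summit lay in the promoter of 1428 genes, of which 1348 code for protein and 89 also had a shared summit. Their median level was above that of genes without a LUG peak. Over the 1259 protein-coding ones without a shared summit, the median TPM was 7.69, 8.30 and 7.80 in the *morchex* libraries and 7.41, 7.92 and 8.15 in the WT libraries at T0, so the genotypes overlapped. Genes with a shared promoter peak had medians of 6.81 to 7.50 in *morchex* and 6.33 to 6.64 in WT, and genes without a LUG promoter peak 2.99 to 3.16 and 2.88 to 3.08.

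Expression of the genes with a *morchex*-only promoter peak differed little between genotypes at T0. Of the 1182 tested, 4 were called higher and 2 lower in *morchex* at a Benjamini-Hochberg adjusted p under 0.05 from edgeR's quasi-likelihood test and a fold change over 2, which is 0.508% of them. Over all 18827 genes tested, 0.244% were called higher (1 being a mutated MORC gene) and 0.0478% lower (4 being such genes), together 0.292%. The median log2 fold change was 0.01 (quartiles −0.13 and 0.15), beside −0.01 over all genes and 0.02 for the 900 tested genes with a shared promoter peak, of which 1 was called higher and 0 lower. At an unadjusted p under 0.05, 60 of the 1182 were higher and 46 lower by edgeR, beside 3.4% and 3.94% of all genes (7.34% together), and of the 900 with a shared peak 41 were higher and 38 lower. With a fold change over 2 added, 7 were higher and 7 lower, beside 0.786% and 0.712% of all genes (1.5% together). DESeq2 called 5 higher and 2 lower of the *morchex*-only genes, and 2 higher and 0 lower of the shared ones. All these medians were smaller than 0.0395, the SD of such a median between libraries of a genotype.

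**Figure D4:**
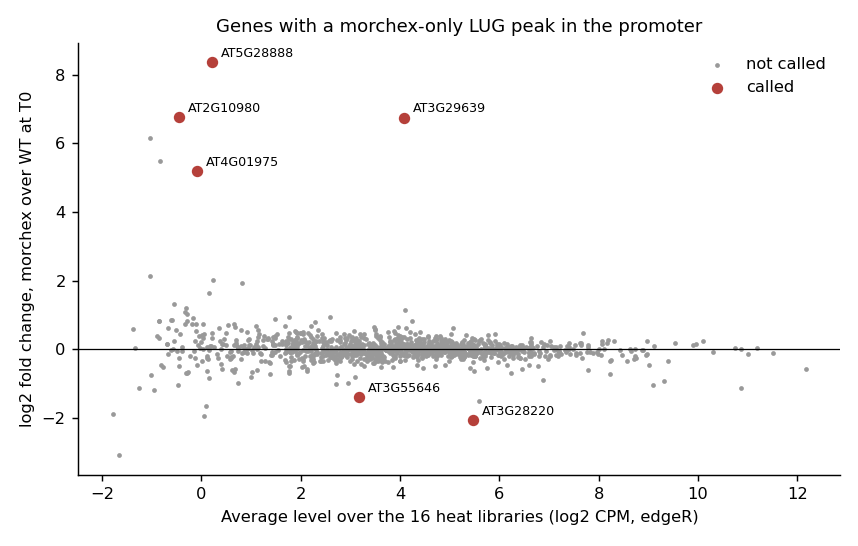
Average level (log2 CPM over the 16 libraries of the heat experiment) against log2 fold change, *morchex* over WT at T0, for the 1182 tested genes with a *morchex*-only LUG peak in the promoter. The 6 called genes are red and named, 4 above and 2 below 0.

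The 4 genes called higher were nearly silent in WT, and each had a peak with no TPL in WT and TPL in *morchex*. They are 4 of the 89 tested genes with such a promoter peak (4.49%), whereas 0 of the 1044 with TPL in WT were called higher by edgeR or DESeq2 (47 were higher at an unadjusted p under 0.05 by edgeR). Of the 4, 3 had a pericentromeric promoter peak, out of 10 such genes tested. Among tested genes, those starting in the pericentromere were called higher more often in general, with 33 of 491 (6.72%), against 13 of 18185 on the arms. Of those 33, 30 had no LUG peak of *morchex* within 1000 bp. The filter on low counts left 491 of 4049 genes starting in the pericentromere, and 18185 of 28786 on the arms. A gene at 0 in WT passes it only through *morchex* libraries, so shares of tested genes favour genes higher in *morchex*. The same filter left 89 of 118 genes, 1044 of 1237 and 10 of 21 in the sets above.

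AT3G29639 (chr3:11478633-11480033), a protein-coding gene in the pericentromere, had 125, 110 and 110 TPM in *morchex* and 2.16, 0.66 and 0 TPM in WT. No library of one genotype came near the other. On the log2 scale the difference was 6.75 ± 0.367 (SE), with an edgeR adjusted p of 5.0e-08. Its promoter peak (chr3:11480000-11480573, fold enrichment 2.87, −log10 q 10.8) lay with its summit 349 bp upstream of the start. A further pair of *morchex*-only peaks lay within 10000 bp of the gene (chr3:11470959-11471897 and chr3:11483049-11483471), also with TPL in *morchex* and not in WT.

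AT5G28888 (chr5:10902105-10903015), a pseudogene, had 3.56, 4.40 and 3.46 TPM in *morchex* and was at 0 in the 3 WT libraries. Its 131 summed counts in *morchex* put it at least 28.9-fold higher, taking 3 counts over the WT group as the floor (adjusted p = 7.9e-04). The peak (chr5:10903220-10903660, −log10 q 12.2) had its summit 524 bp upstream of the start.

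AT4G01975 (chr4:858636-862475), also a pseudogene, had 0.74, 0.66 and 0.81 TPM in *morchex* and 0.02, 0 and 0.03 TPM in WT. With 127 and 2 summed counts the ratio was 42.1 (exact interval 11.4 to 351, which covers counting error only and not the spread between libraries), with an edgeR adjusted p of 0.0011. Its peak (chr4:862773-863256, −log10 q 15.9) lay between it and a second called pseudogene, AT4G01980, which had 7.46, 6.32 and 5.74 TPM in *morchex* and 0 in WT, at least 50.1-fold higher (adjusted p = 8.0e-06). The summit windows at AT5G28888 and AT4G01975 shared an exact run of 23 bases on the same strand, the longest run shared by any pair of the 10 windows compared.

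AT2G10980 (chr2:4336273-4337467), the third pseudogene, had 1.07, 1.11 and 2.09 TPM in *morchex* and 0 in WT, at least 9.72-fold higher with 44 summed counts. Its edgeR adjusted p of 0.049 was the highest of the 4, and leaving out any 1 of the 6 libraries moved it to between 0.0965 and 0.175. The peak (chr2:4335443-4336116, −log10 q 12.6) had its summit 299 bp upstream of the start.

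Both genes called lower had weak promoter peaks. AT3G55646 (chr3:20644843-20646688) had 4.31, 6.36 and 7.24 TPM in *morchex* and 14.8, 14.0 and 17.5 TPM in WT, or −1.39 ± 0.269 (SE) on the log2 scale, with an edgeR adjusted p of 0.040. TPL was in neither genotype at its peak (chr3:20644836-20645038, −log10 q 3.73). AT3G28220 (chr3:10524181-10526733) had 22.2, 34.7 and 18.5 TPM in *morchex* and 108, 46.8 and 154 TPM in WT, or −2.06 ± 0.408 (SE) on the log2 scale, with an edgeR adjusted p of 0.047 and with TPL in both genotypes at its peak (chr3:10523864-10524136, −log10 q 4.74). The groups did not overlap for either gene, and WT replicate 2 of AT3G28220 lay nearest to *morchex*. Leaving out any 1 of the 6 libraries raised the adjusted p of AT3G55646 to between 0.0665 and 0.27, and that of AT3G28220 to between 0.0721 and 0.291, except without WT replicate 2. Without WT replicate 3 its log2 value was −1.66. Both summit windows carry a G-box.

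**Figure D5:**
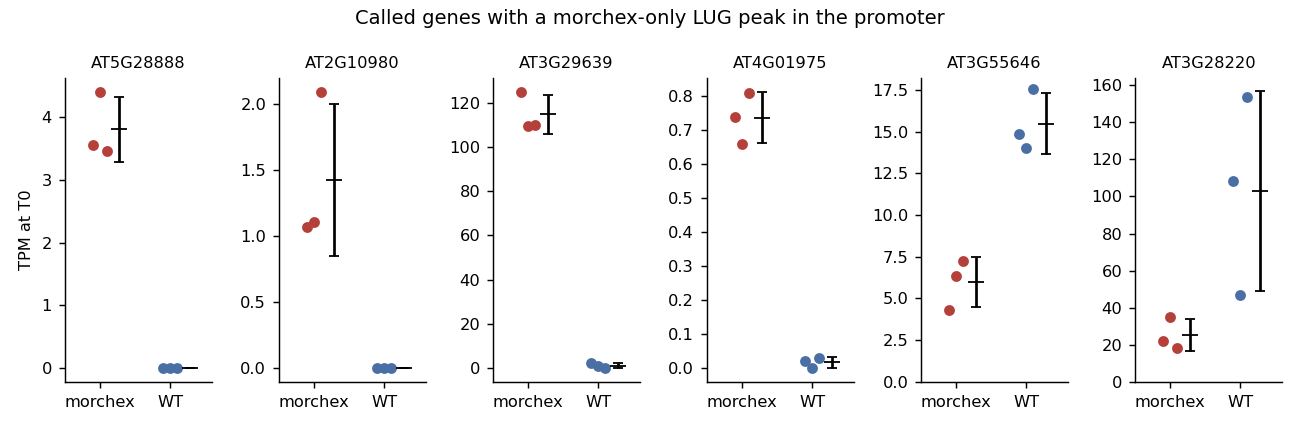
TPM at T0 of the 6 called genes with a *morchex*-only LUG peak in the promoter, each with its own axis. Points are libraries (3 *morchex*, left, and 3 WT, right), and the bar beside them is the mean ± SD. WT libraries were at 0 for AT5G28888 and AT2G10980 and at most 2.16 TPM for AT3G29639.

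Most genes called higher in *morchex* had no LUG peak nearby. Of the 46 genes called higher over the genome, 38 had no LUG peak of *morchex* within 1000 bp and 7 had a *morchex*-only peak (15.2%), the same class of peak being within 1000 bp of 12.8% of all tested genes. Besides the genes above, these included MRD1 (AT1G53480), with 21.5, 22.6 and 20.7 TPM in *morchex* and 0.15, 0.34 and 1.00 TPM in WT (log2 fold change 5.70, adjusted p = 7.4e-08), whose peak was weak (−log10 q 3.09) and had no TPL peak on it in either genotype. The pseudogene AT1G25430, with 6.86, 5.19 and 7 TPM in *morchex* and 1.67, 2.72 and 2.63 TPM in WT (log2 fold change 1.44, adjusted p = 2.7e-04), had a *morchex*-only peak with TPL in both genotypes, and also shared peaks within 1000 bp. Of the 9 genes called lower, 3 had such a peak, among them AT4G36280, the mutated MORC2 (0.46, 0.32 and 0.83 TPM in *morchex*, and 2.65, 2.61 and 2.08 TPM in WT).

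No gene was called at the 20 strongest *morchex*-only peaks in promoters of tested protein-coding genes. These peaks had a −log10 q of 12.5 to 22.7, and all had TPL in WT. HAM1 (AT5G64610), a MYST-type histone acetyltransferase, led them (chr5:25830428-25831114, 687 bp, fold enrichment 3.74, summit 211 bp upstream of the start). It had 11.9, 13.8 and 13.1 TPM in *morchex* and 12.1, 13.0 and 10.6 TPM in WT, overlapping groups that differed by 0.10 ± 0.105 (SE) on the log2 scale (adjusted p = 0.90 by edgeR). The 20 genes include LYK3, a LysM receptor kinase, GTL1, a trihelix factor that limits trichome growth, RAP2.12, a factor of the response to low oxygen, and NF-YA10, a subunit of the NF-Y complex. Their log2 fold changes lay between −0.22 and 0.39 with a median of 0.08, and none was called by edgeR (adjusted p 0.617 to 1) or DESeq2. Of these 20, only ABCB6, a transporter of the ABC family, had an unadjusted p under 0.05 (0.028), with 5.05, 4.51 and 5.23 TPM in *morchex* and 3.88, 4.19 and 3.88 TPM in WT. Pseudogenes were left out of the 20. Promoter peaks of any gene with a −log10 q of at least 10 covered 95 genes, 75 of them tested. By edgeR 4 of the 75 were called higher (5.33%), the same 4 as above, and 0 lower. At an unadjusted p under 0.05, 8 were higher and 0 lower.

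Several genes of the co-repressor system itself carried a *morchex*-only promoter peak. Of 11 co-repressors and adaptors, 4 had one (TPL, TPR1, TPR2 and SLK2), beside 4.35% of all 32835 genes placed on the genome, and 2 had a shared peak. In that order of genes the −log10 q was 4.12, 6.74, 2.72 and 3.33, beside a median of 4.45 over all *morchex*-only peaks. The peak at TPL lay 11 bp from a LUG peak of WT. TPL had 19.3, 19.5 and 20.2 TPM in *morchex* and 16.4, 19.3 and 18.9 TPM in WT (log2 fold change 0.10, adjusted p = 0.90 by edgeR). TPR1 had 9.30, 8.32 and 9.59 TPM in *morchex* and 6.77, 9.22 and 7 TPM in WT (log2 fold change 0.24, adjusted p = 0.74 by edgeR). TPR2 had 8.98, 9.38 and 10.7 TPM in *morchex* and 7.13, 10.5 and 8.01 TPM in WT, and SLK2, a SEUSS-like adaptor, 9.75, 11.4 and 10.5 TPM in *morchex* and 9.79, 9.15 and 11.2 TPM in WT. The log2 fold change was above 0 for all 4 genes, and edgeR called none. All 4 peaks had TPL in both genotypes, but that of TPR1 lay inside the cloned fragment, where reads of the transgene and of TPR1 itself cannot be told apart (TPL peak of WT at chr1:30261199-30269209).

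Auxin, clock and floral genes were also represented. Such a peak lay at 4 of 11 clock genes (CCA1, LHY, ELF4 and PCL1), 5 of 22 ARF genes, 6 of 32 Aux/IAA genes, 5 of 23 floral and meristem regulators (ETT, SEP1, SEP2, JAG and KNU), 4 of 71 WRKY genes, 1 of 13 JAZ genes, 1 of 20 heat shock factors (HSFA3), 0 of 7 PIF genes and 0 of 6 MORC genes. In the same order, shared peaks lay at 1, 2, 7, 5, 2, 4, 2, 2 and 0 members of these lists, so several held as many shared peaks or more. Over all placed genes, 4.35% had a *morchex*-only and 3.36% a shared promoter peak. The *morchex*-only shares of the WRKY genes (5.63%) and heat shock factors (5%) stood near the first of these. ETT, or ARF3, an auxin response factor of floral patterning, had the strongest of these peaks (chr2:14328755-14329041, −log10 q 10.9) and 14.0, 14.8 and 15.4 TPM in *morchex*, against 14.7, 15.4 and 15.1 TPM in WT. ELF4, of the evening complex of the clock, had 210, 235 and 273 TPM in *morchex* and 183, 268 and 267 TPM in WT. SEP1, a floral identity gene, had 4.11, 4.54 and 5.83 TPM in *morchex* and 3.57, 4.62 and 4.81 TPM in WT, while JAG and KNU were at 0 in all 6 libraries. Over the 10 lists, 29 genes had the peak, all with TPL in WT, and 24 were tested. Their log2 fold changes lay between −0.69 (WRKY18) and 0.47 (ARF18), and 0 were called and 0 had an unadjusted p under 0.05 by edgeR or DESeq2.

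Loss of LUG was read in *lug* against Ler, libraries the rule did not use. The summed level of the 7 floral genes was 99.3, 59.5 and 32.6 TPM in *lug* and 21.9, 9.69 and 32.8 TPM in Ler, overlapping groups with the higher values in *lug*, and its part in the values that follow was not tested. Libraries of this pair also spread more widely, with a common biological coefficient of variation of 0.283, against 0.155 in the fit that gave T0. Of the 1123 tested genes with a *morchex*-only promoter peak, 1 was called higher and 1 lower in *lug* (0.178%), beside 0.21% and 0.204% of all 17643 tested (0.414% together). At an unadjusted p under 0.05, 54 were higher and 54 lower, beside 3.96% and 3.37% of all genes (7.33% together), and with a fold change over 2 added 12 and 18, beside 1.2% and 1.34% (2.53% together). DESeq2 called 5 higher and 5 lower. The median log2 fold change was −0.03, beside 0.01 over all genes and −0.05 for genes with a shared peak, all within the SD of 0.101 of such a median between libraries. SLAH3 (AT5G24030), an anion channel of the SLAC1 family, had 26.1, 43.9 and 30.0 TPM in *lug* and 10.0, 13.6 and 8.92 TPM in Ler (log2 fold change 1.76, adjusted p = 0.043 by edgeR). AT3G18535 had 14.1, 12.9 and 10.1 TPM in *lug* and 44.6, 40.5 and 55.7 TPM in Ler (log2 fold change −1.80, adjusted p = 0.013). Neither was called at T0, with log2 fold changes of 0.44 and −0.09 in *morchex* over WT. SLAH3 kept its call only without *lug* replicate 3 (adjusted p 0.0764 to 0.30 without any other library), and AT3G18535 without Ler replicate 2 or *lug* replicate 3 (0.0679 to 0.101 without the others). HSFA3 had 28.47, 27.96 and 15.18 TPM in *lug* and 7.60, 6.46 and 13.21 TPM in Ler, groups that did not overlap, with a log2 fold change of 1.50 that edgeR did not call (adjusted p = 0.23) and DESeq2 did (adjusted p = 0.0060).

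The summit windows of *morchex*-only peaks held some motif letters more often than windows upstream of genes. Letters were searched on both strands of 201 bases. The G-box (CACGTG) was in 12.9% of *morchex*-only windows, 16.8% of shared windows and 5.77% of the 26711 windows just upstream of protein-coding starts. The auxin response element (TGTCTC) was in 16.6%, 21.0% and 8.97%, and the GA repeat (GAGAGAGA) in 10.4%, 10.7% and 4.12%. Lower than upstream of genes were the W-box core (TTGACC; 7.94%, 7.78% and 10.4%), site II (TGGGCC; 5.90%, 7.41% and 12.9%) and the telobox (AAACCCTA; 1.87%, 1.54% and 3.71%). The heat shock element (GAANNTTC; 7.60%, 6.20% and 7.55%) and the evening element (AAAATATCT; 2.05%, 1.22% and 1.96%) stood near the upstream share. The mean GC content was 35.9%, 36.6% and 31.6%, and its part in these shares was not tested. Only 45.8% of *morchex*-only summits lay in a promoter, so the windows also differ in position, and its part was not tested either. In the 1320 *morchex*-only windows with a promoter summit, the share was 14.0% for the G-box, 6.21% for site II and 1.67% for the telobox. At the 199 sites with LUG and TPL called in *morchex* alone, the G-box share was 10.6% (interval 6.65 to 15.7%) and that of the GA repeat 14.1% (9.56 to 19.7%).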

How the data were processed

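Peak lists of LUG and TPL in *morchex* and WT (1 each) and RNA tables of *morchex* and WT (16 libraries of the heat experiment) and of *lug* and Ler (3 each) were analysed. The ATAC-seq and untagged anti-FLAG libraries were not used here. Mapping by the authors was to TAIR10 (Bowtie2 2.1.0), with peaks from MACS2 2.1.1. The control in peak calling is not given in the sources used here. Deposited lists hold, for each peak, a score, a fold enrichment and −log10 p and q. For RNA, RSEM gave the unnormalized expected count and the TPM per gene that the authors deposited.

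The overlap of peaks was at least 1 shared base, and the choice of members was checked with bedtools 2.31.1. Shares have exact (Clopper-Pearson) 95% intervals. Annotation and sequence came from RefSeq TAIR10.1. No peak passed a chromosome end, and the LUG cloning primers enclosed the LUG peaks there. Moving the *morchex* peaks by 10000 bp lowered the share with a promoter summit to between 29.9% and 30.7%, against 43.8% as listed. After rounding, expected counts entered edgeR 4.0.16 in R 4.3.3 (TMM, filterByExpr, glmQLFit), with one fit of the 16 libraries in 6 groups and one of *lug* and Ler. The fits were tested on simulated data. Python 3.11.15 made the tables.

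Named genes are those at the 20 strongest promoter peaks, every gene called, and members of gene lists. MRD1, AT1G25430, AT4G01980 and MORC2 were named after their values were seen. The members and the lists were chosen with earlier results of these data known. Alternatives were DESeq2 1.42.0, no filter on low counts, a block for the replicate number, leaving out single libraries, other thresholds for peaks and overlap, and a promoter of 3000 bp.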

Additional observations from a re-analysis of the deposited data

How the results depend on the processing

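With 1 list per genotype, no alternative replaces replicate peaks. The number of *morchex*-only peaks was 167 at a −log10 q of at least 10 and 771 among as many *morchex* peaks as WT had. In those sets the pericentromere held 8.98% and 4.15%, and a promoter 52.7% and 48.1% (73.4% with 3000 bp upstream). TPL of WT was at 89.6% of the 771 peaks, at 89.4% with 50% reciprocal overlap, at 86.2% with the summit inside, and at 39.7% with TPL peaks of a −log10 q of at least 10.

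At T0, 4 of the 75 tested genes at strong peaks were called higher and 0 lower, with a median log2 fold change of 0.0634. Genes called lower numbered 1 in a fit of *morchex* and WT alone and 4 with the longer promoter. Without single libraries, 3 to 4 were called higher and 0 to 1 lower, with medians of −0.0042 to 0.0334. An unadjusted p with a fold change over 2 gave 7 and 7. In *lug*, 3 were higher and 3 lower with the longer promoter, 5 and 5 by DESeq2, 12 and 18 unadjusted, and 0 and 0 at strong peaks (median 0.0886). Without single libraries 0 to 4 were higher and 0 to 3 lower (medians −0.0741 to −0.0068), the most without *lug* replicate 3.

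Replicate numbers did not pair the libraries (same-number correlations 0.0868, −0.204 and −0.105 at T0, and −0.252, −0.0145 and −0.507 in *lug*). With the replicate block, 3 genes were called higher and 0 lower at T0, and 0 and 0 in *lug*. Adjusted p under the block was 0.145 for AT2G10980, 0.0816 for AT3G55646, 0.0593 for AT3G28220 and 0.268 for SLAH3 and AT3G18535. AT3G28220 had 0.0981 in the fit of *morchex* and WT alone.

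Of 30 genes refitted at T0, leaving out single libraries turned the sign of 6, none of them called, with log2 fold changes between −0.0143 and 0.144 for SLK2, −0.173 and 0.0709 for ELF4, −0.0186 and 0.251 for SEP1, −0.0065 and 0.191 for GTL1, −0.117 and 0.898 for LHY, and −0.211 and 0.103 for AT3G18535. The cause was not tested.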
